A study of Mus musculus with 7 samples.

Results

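Stearoyl-CoA desaturases were followed as all 4 genes of the mouse family, Scd1, Scd2, Scd3 and Scd4, chosen by name among the 47069 genes of the deposited table. RNA was sequenced from the duodenum of 7 male C57BL/6 mice (C57BL/6J in the text on the whole study) aged 8 to 12 weeks, as 1 library per mouse. No genetic change is named in the labels. The treated group of 3 mice received T0901317 (T09), a synthetic agonist of the liver X receptors (LXR), at 50 mg/kg/day, and the control group of 4 mice received the vehicle, 0.5% carboxymethylcellulose. How long the mice were treated is not stated in the labels, which name a tissue rather than an isolated cell type. The question posed by this design is how an LXR agonist changes RNA levels in the duodenum.

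A stearoyl-CoA desaturase sits in the membrane of the endoplasmic reticulum and puts a cis double bond into saturated acyl-CoA, turning stearoyl-CoA into oleoyl-CoA and palmitoyl-CoA into palmitoleoyl-CoA. The electrons come from NADH through cytochrome b5 reductase and cytochrome b5, and the products go into triglycerides, phospholipids, cholesterol esters and wax esters. Scd1 is the main form of mouse liver and adipose tissue and a known target of LXR and of SREBP-1c, the lipogenic factor encoded by Srebf1. In mouse, Scd2 is best known from brain and from newborn tissues, Scd3 from sebaceous and Harderian glands, and Scd4 from heart.

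The genes lie together on chromosome 19 over 204422 bases. In the coordinates of the deposited table, which overlapped those of the GRCm38 annotation GENCODE M21 for all 4 genes on the same strand, Scd3 (ENSMUSG00000025202) occupied chr19:44203288-44244016, Scd2 (ENSMUSG00000025203) chr19:44293676-44306864 and Scd4 (ENSMUSG00000050195) chr19:44333092-44346743, each on the plus strand. Scd1 (ENSMUSG00000037071) occupied chr19:44394451-44407709 on the minus strand. The gaps between neighbours were 49659, 26227 and 47707 bases, in that order.

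Because the family is so alike in sequence, 2 stretches of coding sequence are shown, the most alike and the least alike between Scd1 and Scd2. Reads lying wholly in the first could not be told apart among Scd1, Scd2 and Scd3 by their bases. A run of 120 coding bases, from exons 4 and 5 of 6 and across 1 splice junction, was the same in Scd1 (minus strand, chr19:44400368-44401805), Scd2 (plus strand, chr19:44299702-44301218) and Scd3 (plus strand, chr19:44235864-44238382) of GENCODE M21. Scd4 (plus strand, chr19:44339003-44341227) differed from it at 4 bases, which are in capitals.
Scd1, Scd2 and Scd3: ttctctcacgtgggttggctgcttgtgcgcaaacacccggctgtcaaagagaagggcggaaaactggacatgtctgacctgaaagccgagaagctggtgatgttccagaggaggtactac
Scd4: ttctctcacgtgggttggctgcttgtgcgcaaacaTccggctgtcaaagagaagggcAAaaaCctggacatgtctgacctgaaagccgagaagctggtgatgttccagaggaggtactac

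The window of 60 coding bases least alike between Scd1 and Scd2 lay in exon 2, and capitals mark the bases that differ from Scd1. Scd2 differed there at 16 bases, Scd4 at 14 and Scd3 at 3. The Scd1 window was chr19:44406620-44406679 on the minus strand, and the others were on the plus strand at chr19:44294994-44295053 (Scd2), chr19:44215492-44215551 (Scd3) and chr19:44334069-44334128 (Scd4).
Scd1: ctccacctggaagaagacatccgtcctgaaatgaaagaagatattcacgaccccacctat
Scd2: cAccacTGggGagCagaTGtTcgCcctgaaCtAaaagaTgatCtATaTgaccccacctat
Scd3: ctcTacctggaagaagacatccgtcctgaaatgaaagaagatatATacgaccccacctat
Scd4: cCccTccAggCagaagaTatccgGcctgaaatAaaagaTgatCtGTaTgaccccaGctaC

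Over the whole coding sequence, Scd1 was 90.4% identical to Scd2, 91.5% to Scd3 and 85.2% to Scd4, and the longest run shared by Scd1 and Scd2 was 147 bases. Most of each transcript was nevertheless particular to its gene. Of all 50-base windows of the transcript, 4.66% in Scd1, 3.79% in Scd2, 6.37% in Scd3 and 3.44% in Scd4 occurred exactly in another Scd transcript. How reads that fit several genes were counted is not stated in the labels, so small counts of Scd3 and Scd4 beside large counts of Scd1 and Scd2 are uncertain.

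Each library held between 15395535 and 20494485 counts on genes. The enterocyte markers made up 4.61 to 4.93% of the counts in the vehicle libraries and 4.77 to 4.79% with T09. Of 14250 genes with enough counts to test by edgeR's quasi-likelihood test, 614 (4.31%) passed a Benjamini-Hochberg adjusted p of 0.05, of which 205 (1.44%) were higher with T09 and 409 (2.87%) lower. Among the 10 enterocyte markers 2 were called higher, the fatty acid binding protein genes Fabp1 and Fabp2, and 0 lower, whereas DESeq2 called 2 lower. With 1 library left out Fabp1 was called in 4 of 7 fits (not without vehicle replicate 3 or T09 replicate 2 or 3), and Fabp2 in 1 of 7, that without T09 replicate 1. Markers of the muscle wall moved with the groups: 9 of 10 smooth muscle markers were called lower with T09, and their summed share was 0.0900 to 0.159% of the counts with vehicle and 0.0191 to 0.0379% with T09. Of the enteric neuron and glia markers, 5 of 9 tested were called lower, with a share of 0.00183 to 0.00315% against 0.000732 to 0.000820%. Vehicle replicate 1 carried pancreatic acinar markers at 0.0795% of its counts, where no other vehicle library exceeded 0.00135%. The part of these tissue differences in the Scd values was not tested, and in whole tissue fewer cells of a type and less RNA per cell cannot be told apart.

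Scd1 and Scd2 had far higher levels in all T09 libraries than in any vehicle library, and Scd3 and Scd4 stayed near the limit of detection in both groups. Of the 4 genes, 2 had enough counts for the test, and 1 of these, Scd2, was called higher with T09, where 1.44% of all tested genes were. Scd1 missed the threshold in this edgeR fit, though not in every other fit to the same 7 libraries. Both tested genes were higher in every T09 library than in any vehicle library, as were 7.07% of the tested genes, and in either direction 16.8% of the tested genes did not overlap between groups.

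Scd2 rose 28.8-fold. Its counts per 1000000 counts of the library (CPM) were 15.9, 15.4, 12.5 and 25 in vehicle replicates 1 to 4 and 389, 517 and 582 in T09 replicates 1 to 3. The vehicle libraries stayed close together, within a 2.00-fold range, and the lowest T09 library stood 15.6-fold above the highest vehicle library. The means were 17.2 ± 5.42 CPM (SD, n = 4) and 496 ± 98.1 CPM (SD, n = 3). The log2 fold change by edgeR's quasi-likelihood test was 4.85 (SE 0.25), with an adjusted p of 3.97e-05. Scd2 thereby ranked 2 of the 14250 tested genes by fold change, behind Akr1b8, an aldo-keto reductase gene, at a log2 fold change of 5.56.

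Scd1 reached the highest levels of the family, and its control level differed greatly from mouse to mouse. In the vehicle libraries it was 7.57, 14.3, 52.3 and 503 CPM, and in the T09 libraries 2497, 4105 and 4480 CPM. Vehicle replicate 4 stood apart from the other controls, the vehicle libraries spanned a 66.4-fold range and the T09 libraries a 1.79-fold range. Even so the groups did not overlap, the lowest T09 library being 4.96-fold above vehicle replicate 4. The mean was 144 ± 240 CPM (SD, n = 4) with vehicle, where the median was 33.3 CPM, and 3694 ± 1053 CPM (SD, n = 3) with T09. The log2 fold change was 4.68 (SE 1.25), with an edgeR adjusted p of 0.0735. By fold change Scd1 ranked 3 of all tested genes, and by p-value 837.

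The level of Scd1 varied among the control mice more than that of nearly any other tested gene. Over the vehicle libraries the SD of log2 CPM was 2.67 for Scd1, rank 8 among the 14250 tested genes, against 0.42 for Scd2 and a median of 0.22 over all tested genes. With T09 it was 0.45 for Scd1, 0.30 for Scd2 and 0.21 for the median gene. Without vehicle replicate 4 the log2 fold change of Scd1 was 7.23 (SE 0.77) with an edgeR adjusted p of 0.00629, in a fit where 2.03% of 14043 tested genes were called and 0.733% were called higher. In that fit Scd2 stood at 5.08 (SE 0.20). DESeq2, a count test with another model of the spread, gave Scd1 4.66 with an adjusted p of 0.00980, and limma-voom gave 6.46 with an adjusted p of 0.0179, at backgrounds of 2.23% and 1.31% of tested genes called higher.

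**Figure D1:**
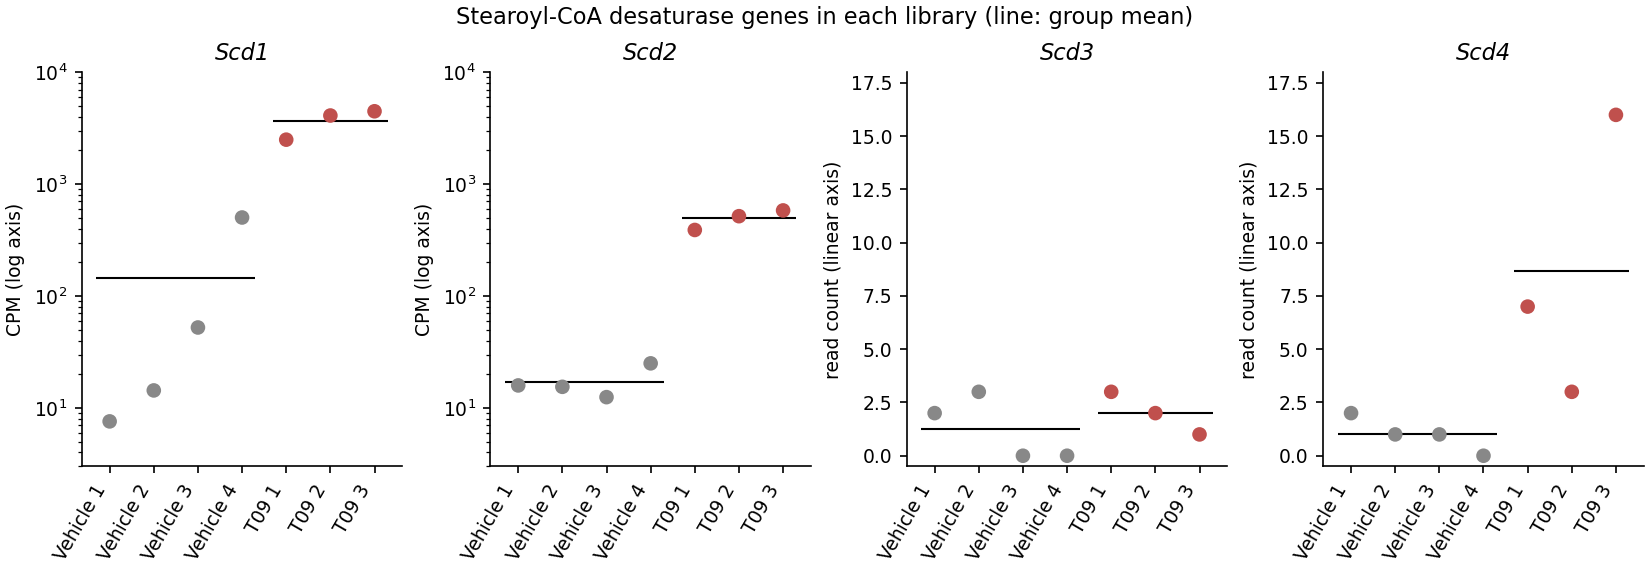
CPM of Scd1 and Scd2 (log axis) and read counts of Scd3 and Scd4 (linear axis) in each library, by group. Scd1 spans 7.57 to 503 CPM with vehicle and 2497 to 4480 CPM with T09, and Scd2 12.5 to 25 and 389 to 582 CPM. Scd3 and Scd4 stay at 16 counts or fewer, which is below 1 CPM.

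**Figure D2:**
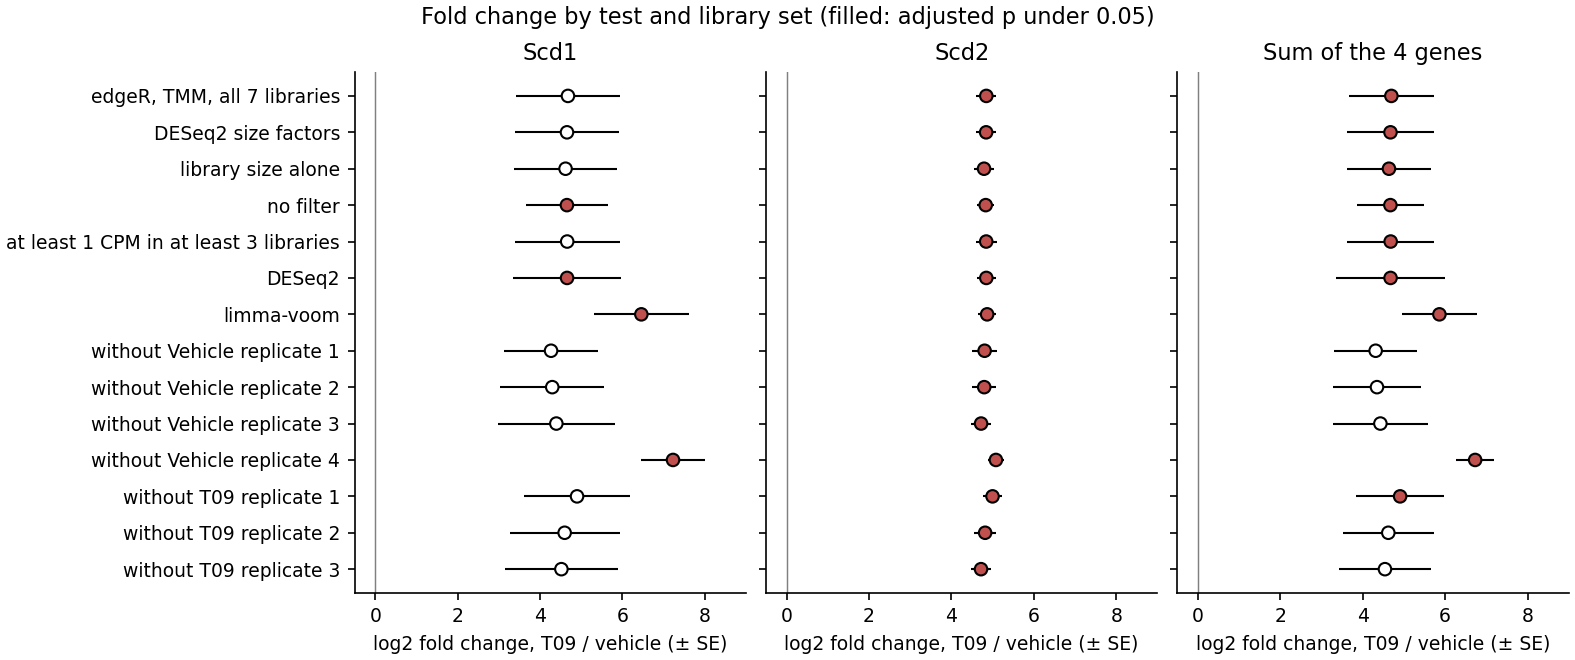
Log2 fold change (T09 over vehicle) of Scd1 and Scd2 under the main test and its alternatives (without the fit by replicate number). Bars are standard errors, derived from the F statistic for edgeR, and points are filled where the adjusted p passed the threshold. Scd2 lies between 4.72 and 5.08, whereas Scd1 lies between 4.27 and 7.23 over the libraries left out and is highest without vehicle replicate 4.

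The size of the Scd1 transcript pool is seen from its share of the library. Scd1 took 0.000768, 0.00144, 0.00534 and 0.0509% of all gene counts in vehicle replicates 1 to 4 and 0.258, 0.400 and 0.420% in T09 replicates 1 to 3. It was thus an ordinary or weak gene in most controls and among the most abundant with T09. By count it ranked 32, 15 and 13 of all genes in the T09 libraries.

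Levels between members were compared as FPKM, the deposited values scaled for gene length and for library size. Scd1 was at 1.59, 2.98, 11 and 105 FPKM with vehicle and 533, 827 and 868 FPKM with T09. Scd2 was at 2.95, 2.85, 2.33 and 4.64 FPKM with vehicle and 73.7, 92.3 and 99.96 FPKM with T09. Thus Scd2 was above Scd1 in vehicle replicate 1, the genes were about level in vehicle replicate 2, and Scd1 was above Scd2 in the other vehicle libraries and in every T09 library. Ranked by FPKM among all 47069 genes, Scd1 moved from places 10900, 9362, 5986 and 1200 with vehicle to 221, 127 and 131 with T09, and Scd2 from places between 8190 and 9964 to places between 1190 and 1618.

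As a share of the family's summed FPKM, Scd1 made up 34.4, 50.5, 82.4 and 95.8% in the vehicle libraries and 87.8, 89.9 and 89.6% in the T09 libraries, with Scd2 nearly all of the rest. The make-up of the family was thus alike in the 3 T09 mice and different in each vehicle mouse, and the T09 shares fell inside the vehicle range. The log2 ratio of Scd1 to Scd2 counts was 1.31 (SD 2.40, n = 4) with vehicle and 2.87 (SD 0.17, n = 3) with T09. The difference of 1.57 was smaller than the vehicle SD, and an exact two-sided permutation test gave p = 0.343, where the smallest p that 35 splits allow is 0.0286. Without vehicle replicate 4 the difference was 2.57 (exact permutation p = 0.1), and every T09 ratio then lay above every vehicle ratio. With 3 libraries in each group, 0.1 is the smallest p the two-sided test can give, so that fit could not pass 0.05. The difference was 0.775 without vehicle replicate 1. A treatment difference between Scd1 and Scd2 was therefore not resolved by these libraries.

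**Figure D3:**
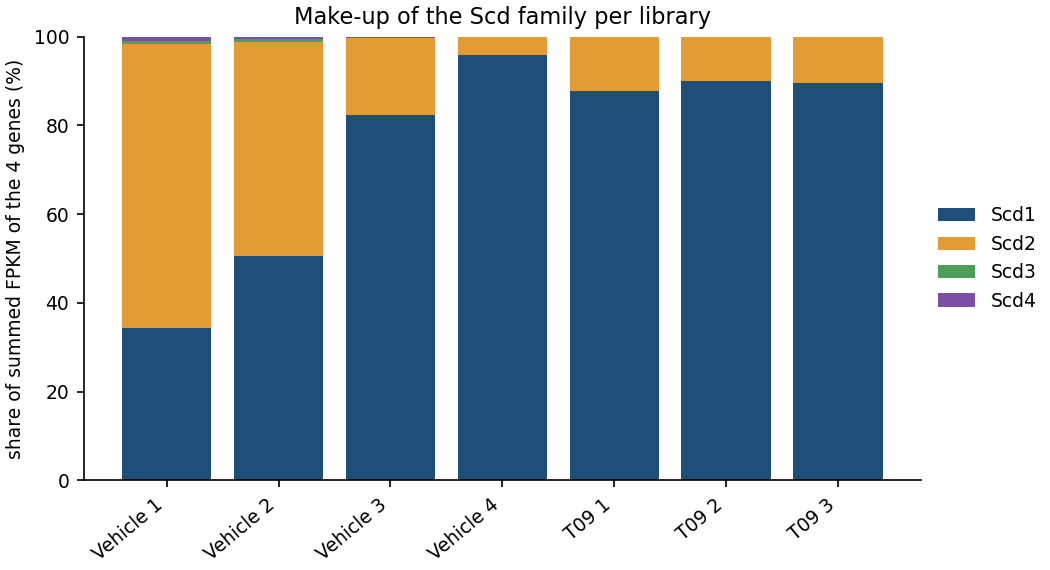
Share of the summed Scd FPKM held by each member, in percent, 1 bar per library. Scd1 holds 34.4 to 95.8% in the 4 vehicle libraries and 87.8 to 89.9% in the 3 T09 libraries.

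All 4 genes summed gave 23.7, 30.0, 64.8 and 528 CPM with vehicle and 2887, 4622 and 5063 CPM with T09. The sum follows Scd1, and vehicle replicate 4 again stood apart. The log2 fold change of the sum was 4.70 (SE 1.03), with an edgeR adjusted p of 0.0359. This call was lost when vehicle replicate 1, 2 or 3 or T09 replicate 2 or 3 was left out, with adjusted p between 0.0645 and 0.105, and without vehicle replicate 4 the value was 6.73 (SE 0.47).

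Scd4 had counts of 2, 1, 1 and 0 with vehicle and 7, 3 and 16 with T09. Every T09 library was above every vehicle library, but the level stayed below 1 CPM, too low to enter the main test. The totals were 4 and 26 counts, a ratio per library size of 8.16 with an exact 95% interval of 2.83 to 32.2 that covers counting error only. When genes of any count were admitted, the log2 fold change by edgeR was 2.95 (SE 0.87) with an adjusted p of 0.0872, and the adjusted p by DESeq2 was 0.107. The counts of Scd1 and Scd2 were also higher with T09. Their coding sequences shared identical runs of up to 116 bases (Scd1) and 98 bases (Scd2) with Scd4. Whether reads of Scd1 and Scd2 entered the Scd4 counts was not tested.

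Scd3 had counts of 2, 3, 0 and 0 with vehicle and 3, 2 and 1 with T09, and the groups overlapped. The totals of 5 and 6 gave a ratio of 1.51 with an exact 95% interval of 0.383 to 6.24, so a difference was not detectable at this depth. Markers of sebaceous and related glands, where Scd3 is best known, summed to 0.00357 to 0.00543% of the counts with vehicle and 0.00322 to 0.00407% with T09. Nearly all of that sum was Far2, at 33.0 to 53.1 CPM per library. The other listed markers stayed below 1 CPM, and Mc5r, Awat1 and Dgat2l6 were at 0 in every library.

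Like Scd1, the 7 tested fat cell markers were highest in vehicle replicate 4 among the controls, as were 3498 of all 14250 tested genes. Scd1 is abundant in mouse adipocytes, and a list of 10 adipocyte markers was read beside it, of which 7 could be tested. By edgeR 0 were called, where 4.31% of all tested genes were. At an unadjusted p under 0.05, 6 were lower by edgeR, as were 1511 of all 14250 tested genes. DESeq2 called 3 lower and limma-voom 0. Cidec held most of the list's counts, and for this reason, after its values were seen, the 9 other markers were also summed. They gave 199, 435, 617 and 5782 counts in vehicle replicates 1 to 4 and 164, 62 and 170 counts in T09 replicates 1 to 3. Vehicle replicate 4 was the highest of all libraries for these markers, and for Scd1 the highest of the vehicle libraries.

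Adiponectin (Adipoq), secreted by adipocytes, had 4, 15, 31 and 479 counts with vehicle and 0, 0 and 8 with T09. Perilipin 1 (Plin1), which coats the adipocyte lipid droplet, had 6, 15, 34 and 459 counts with vehicle and 1, 0 and 2 with T09. Both genes, named after their values were seen, had the vehicle order of Scd1. So did Cfd, Car3 and Fabp4 of the same list, and Lep, Retn and Adig, which were too low to test. Plin4 and Cidec, the rest of the list, did not, with 4.88 and 160 CPM in vehicle replicate 1 and 3.46 and 152 CPM in vehicle replicate 2. The number of Scd1 counts per Adipoq count was 36.5, 18.2, 26.5 and 19.5 in the vehicle libraries, the first of these resting on 4 Adipoq counts. In T09 replicate 3 it was 9461, and T09 replicates 1 and 2 had no Adipoq count. In T09 replicate 2, where Scd1 stood at 4105 CPM, 5 of the 9 markers (Adipoq, Plin1, Cfd, Lep and Retn) were at 0, and the others were present, Plin4 at 1.82, Fabp4 at 1.05, Car3 at 0.497 and Adig at 0.0552 CPM. Cidec stood at 119 CPM there. The part of fat cell RNA in the Scd1 level of the vehicle libraries was not tested.

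**Figure D4:**
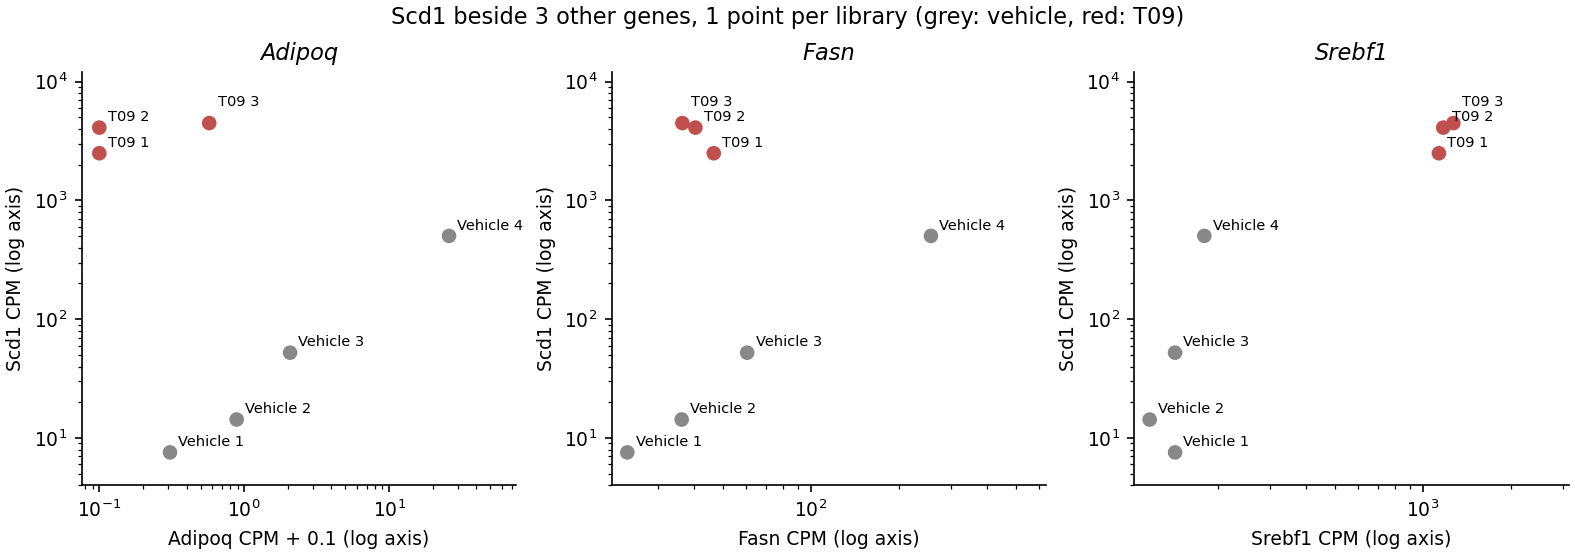
Scd1 CPM (vertical, log axis) against the CPM of Adipoq, Fasn and Srebf1 in the 7 libraries (horizontal, log axes, with 0.1 added to Adipoq). Vehicle replicate 4 is the highest vehicle library for all 4 genes, and the T09 libraries combine high Scd1 with 0 to 8 counts of Adipoq, Fasn of 36.4 to 46.6 CPM and Srebf1 of 1134 to 1271 CPM.

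Among the genes known to regulate Scd transcription, 3 of 18 were called higher with T09 and 0 lower, where 1.44% and 2.87% of all tested genes were, with a list median log2 fold change of 0.08 against 0.02 over all tested genes. Srebf1 was at 142, 116, 142 and 179 CPM with vehicle and at 1134, 1174 and 1271 CPM with T09. It was thus high in every T09 library, with little spread in either group, and rose by 3.04 on the log2 scale (SE 0.15), with an adjusted p of 3.97e-05 by edgeR. Ppara, the fatty acid receptor PPAR alpha, rose by 1.70 (SE 0.12), and Insig1, a retention factor of SREBP processing, rose by 0.58 (SE 0.13). The Insig1 call was lost in 5 of the 7 fits that leave out 1 library, namely vehicle replicates 1, 3 and 4 and T09 replicates 2 and 3. Mlxipl (ChREBP, the carbohydrate-responsive lipogenic factor), Rxra (partner of LXR) and Nr1h2 (LXR beta) had values of 0.16, -0.02 and -0.04 that did not pass the test.

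The genes listed under saturated acyl-CoA supply split. Of 13 genes, 12 were tested, 3 were called higher and 0 lower (1.44% and 2.87% of all tested genes), with a median of 0.14. Malic enzyme Me1, a source of NADPH, rose by a log2 fold change of 2.24 (SE 0.20), from 43.2 ± 8.55 CPM (SD, n = 4) to 204.5 ± 50.7 CPM (SD, n = 3). Acsl3, an acyl-CoA synthetase, rose by 1.77 (SE 0.23) and Acacb, the mitochondrial acetyl-CoA carboxylase, by 1.41 (SE 0.30). The Acacb call was lost without vehicle replicate 2, 3 or 4 or T09 replicate 2 or 3. Acsl5, Slc25a1 and Elovl6, an acyl-CoA synthetase, the citrate carrier and the elongase that makes stearoyl-CoA, stood at 0.14, 0.07 and 0.12 and did not pass.

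Fasn, the fatty acid synthase, was taken up after its values were seen because it shared the vehicle pattern of Scd1 without the T09 level. It was at 23.6, 36.2, 60.6 and 257 CPM with vehicle and 46.6, 40.3 and 36.4 CPM with T09. Vehicle replicate 4 was again far above the rest, and the T09 libraries lay inside the vehicle range. Its difference was -1.20 on the log2 scale (SE 0.71, adjusted p = 0.433 by edgeR), and 0.03 (SE 0.29, adjusted p = 0.982) without vehicle replicate 4. Acaca, the cytosolic acetyl-CoA carboxylase, was at 9.86, 11, 12.9 and 34.9 CPM with vehicle and 22.2, 19.3 and 23.4 CPM with T09. Its log2 fold change of 0.33 did not pass, and without vehicle replicate 4 it was 0.94 (SE 0.16, edgeR adjusted p = 0.0225).

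The electron donors of desaturation did not pass the test. Of 6 genes, 5 were tested, and edgeR called 0, where it called 4.31% of all tested genes. By edgeR 1 was higher at an unadjusted p under 0.05, as were 1035 of all 14250 tested genes. DESeq2 called 1 and limma-voom 0. That gene was Cyb5a, microsomal cytochrome b5, at 422 to 650 CPM with vehicle and 678 to 1080 CPM with T09. Its groups did not overlap, and the log2 difference was 0.75 (SE 0.18), with an adjusted p of 0.0538 by edgeR and 0.00146 by DESeq2. Cyb5b, the outer mitochondrial membrane form, and Cyb5r3, the reductase, stood at 0.20 and 0.13.

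Of the other desaturases, 6 of 6 were tested and 0 called by edgeR, DESeq2 or limma-voom, where edgeR called 4.31% of all tested genes. By edgeR 2 were higher at an unadjusted p under 0.05, as were 1035 of all 14250 tested genes. The list median was 0.22. These 2 were Fads6 at a log2 fold change of 0.75 (SE 0.30) and Fads1 at 0.32 (SE 0.13), and Fads3 stood at -0.70 (SE 0.32). The sphingolipid desaturases Degs2 and Degs1 and the polyunsaturated fatty acid desaturase Fads2 had log2 fold changes of -0.05, 0.17 and 0.27.

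Genes listed as users of monounsaturated acyl-CoA gave 3 called higher and 0 lower of 15 tested (1.44% and 2.87% of all tested genes), with a median of -0.02. Soat1, which makes cholesterol esters, rose by a log2 fold change of 1.55 (SE 0.12). Elovl5, an elongase, rose by 0.84 (SE 0.11) and Lpcat3, which builds unsaturated phospholipids, by 0.81 (SE 0.09). Dgat1, Dgat2 and Mogat2, which assemble triglycerides in the enterocyte, had values of 0.14, -0.36 and -0.13 that did not pass. Srebf1, Ppara, Me1, Acsl3, Soat1, Elovl5 and Lpcat3 were called in all 7 fits that leave out 1 library.

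No tested gene beside the Scd cluster was called, where edgeR called 4.31% of all tested genes. Within 250 kb of its outer ends the table listed 14 other genes, of which 9 were tested: Cpn1, Cyp2c44, Erlin1, Chuk, Cwf19l1, Bloc1s2, Sec31b, Ndufb8 and Hif1an. EdgeR, DESeq2 and limma-voom called 0 of them. By edgeR 3 were higher at an unadjusted p under 0.05, as were 1035 of all 14250 tested genes. These 3 neighbours had log2 fold changes of 0.39 (Erlin1), 0.35 (Bloc1s2) and 0.33 (Chuk). Over the 9 tested neighbours the range was 0.06 (Hif1an) to 0.39, against 4.85 for Scd2. Mir5114, a miRNA gene that lies inside Scd2, had 0 counts in every library.

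**Figure D5:**
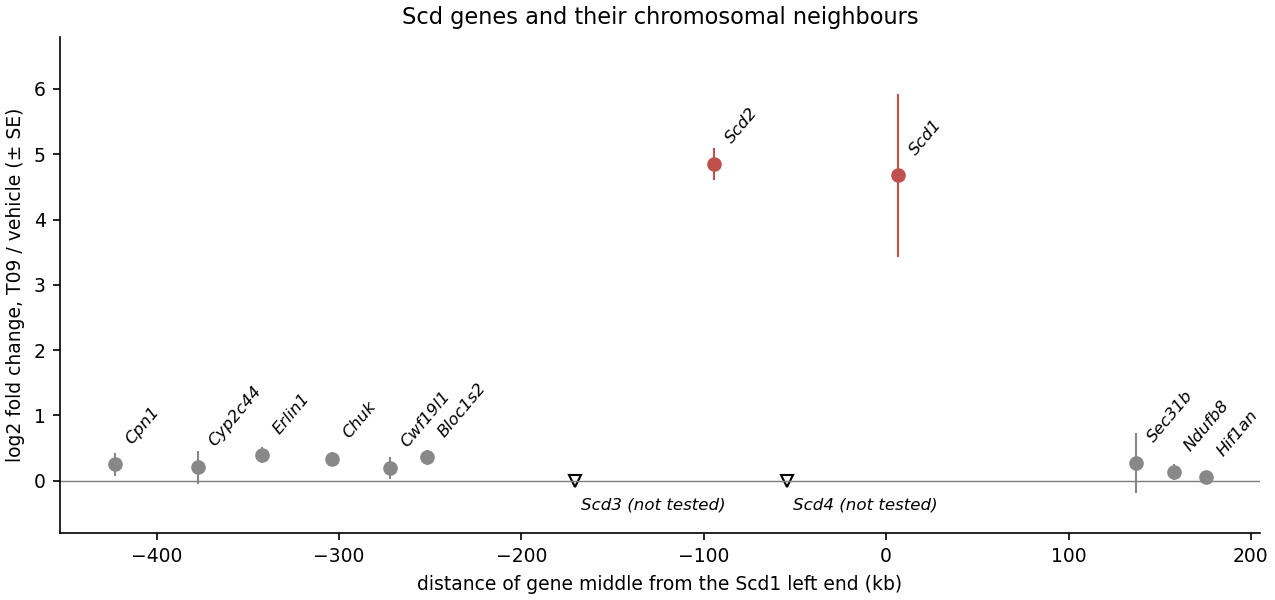
Log2 fold change (T09 over vehicle, with SE) of the tested genes around the Scd cluster on chromosome 19, by the distance of each gene's middle from the left end of Scd1 in kb. Scd2 at 4.85 and Scd1 at 4.68 stand above 9 neighbours that lie between 0.06 and 0.39.

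Likeness of pattern was measured as the root mean square difference of mean-centred log2 CPM over the 7 libraries, where a small value means a like pattern in size and direction. For Scd2 the nearest genes were Akr1b8 at 0.757, Cyp4a10, a fatty acid hydroxylase gene, at 0.827, Srebf1 at 0.928, Mylip, which encodes a ubiquitin ligase for the LDL receptor, at 1.02 and Abcg1, a sterol transporter gene, at 1.05, beside a median of 2.44 over all tested genes. For Scd1 the nearest were Scd2 at 1.75, Akr1b8 at 1.89, Srebf1 at 2.33, Mylip at 2.43 and Cyp4a10 at 2.44, beside a median of 3.65. By likeness to Scd2, Scd1 held rank 49.

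Promoter windows of RefSeq (GRCm38.p6, 250 bases before to 50 after the start) were matched for Scd3 and Scd4. Neither held, on either strand, the LXR element DR4 (by its AGGTCA repeats, or relaxed to NGGTNA, present in 0.0152% and 0.718% of 32851 windows), the sterol regulatory element (0.551%, or 1.24% in a relaxed form), CCAAT (37.4%), GGGCGG (35.7%) or TATAAA (13.6%). Each held 3 matches to CANNTG, a pattern found in 72.3% of all windows. These matches describe letters in the window. The Scd4 window, chr19:44333076-44333375, lay mostly inside the Scd4 interval given above, which starts at 44333092. No window of Scd1 or Scd2 was examined.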

How the data were processed

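The authors deposited a table of whole-number counts per gene and of FPKM (fragments scaled for gene length and library size) for 7 duodenum libraries. Per the submitters' processing notes, which give no roles, the tools included HTSeq 0.6.1, DESeq 1.18.0, Bowtie2 2.2.3 and TopHat2 2.0.12. No label or file header used here states the genome build, annotation, strand setting or treatment of shared reads. The deposited FPKM of Scd4 corresponds to a length of 2230 bases, not the listed 3306.

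Counts were tested with edgeR 4.0.16 (TMM scaling, filterByExpr, quasi-likelihood test, R 4.3.3), T09 against vehicle, with Benjamini-Hochberg adjustment over 14250 genes and a threshold of 0.05. CPM used TMM library sizes. Alternatives were DESeq2 1.42.0, limma-voom (limma 3.58.1), other scalings and filters, a replicate block and each library left out. Scripts were tested on simulated data. There edgeR called 16.7% of genes changed 1.5-fold, 45.3% of those changed 2-fold and 96% of those changed 8-fold. A gene that was not called may thus still have changed. Intervals cover counting error only. Scd3 and Scd4 failed the filter and have no main test.

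Sequences came from GENCODE M21 (GRCm38), aligned with mafft 7.526, and table coordinates overlapped the same gene there for 98.6% of genes. The family members and the gene lists were chosen with earlier results of these data known. The genes named are the 4 members, the called genes and the 3 most abundant uncalled genes of each pathway list, called enterocyte markers, the tested neighbours and the 5 genes most alike to each tested member. Fasn, Acaca, Fads1, Fads3, Fads6, the adipocyte and gland markers named singly and the marker sum without Cidec were added after their values were seen.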

Additional observations from a re-analysis of the deposited data

Results flagged for a closer look

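Of 73 sets of 4 vehicle values, 15 held a library far from the other 3 by Dixon's test at the 95% level. Independent sets chosen blind would give about 3.65 by chance. These sets overlap, and some of their genes were picked after their values were seen, so that number is no yardstick here. In 8 of the 15 the library that stood apart was vehicle replicate 4, on the high side. It held Scd1 at 503 CPM (next library 52.3) and the sum of the 4 Scd genes at 528 CPM (64.8). Lipogenic enzymes and adipocyte markers stood apart with them in the same library. The enzymes were Fasn at 257 CPM (60.6) and Acaca at 34.9 CPM (12.9), and the markers were Adipoq at 25.8 CPM (1.97), Plin1 at 24.7 CPM (2.16), Fabp4 at 71.9 CPM (9.61) and Car3 at 86.1 CPM (10.4).

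Vehicle replicate 1 stood apart for pancreatic acinar markers, with a summed share of 0.0795% of its counts and Ctrb1 at 261 CPM (0.216), Cela1 at 129.6 CPM (13.2) and Pnlip at 128 CPM (0.0539). It was also low for Acacb, at 3.99 CPM (9.16). Vehicle replicate 2 was high for Acsl5, at 2137 CPM (1851), and low for Nr1h2, at 111 CPM (131.8).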

How the results depend on the processing

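Scd2 was called in all 14 alternatives, with log2 fold changes from 4.72 to 5.08. Scd1, not called at 4.68, was called with no filter (4.65), by DESeq2 (4.66), by limma-voom (6.46) and without vehicle replicate 4, and its value ran from 4.27 to 7.23 over the libraries left out. The sum of the 4 genes ran from 4.31 to 6.73 over the same fits. The number of electron donors called was 1 under library size alone, no filter and DESeq2, and 0 to 1 with a library left out. DESeq2 called 1098 genes in all against 614, and leaving out libraries gave 251 to 819, namely 280 or 285 when vehicle replicate 3 or 4 was dropped and 303 or 251 when T09 replicate 2 or 3 was dropped. The cause of these shifts was not tested. No member's value and not that of the summed family changed direction. Fasn, Elovl6, Mlxipl, Dgat1, Rxra, Nr1h2 and Sec31b, none of them called, crossed 0 when 1 library or another was left out. Depth limits Scd3 and Scd4, at 16 counts or fewer per library. 

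Same-numbered vehicle and T09 libraries deviated together with correlations of 0.256, 0.0302 and -0.0270, so the numbers were not taken as pairs. A fit with the replicate block leaves out vehicle replicate 4, which has no partner, and gave 290 called genes, Scd1 at 7.63 (edgeR adjusted p = 0.00141) and the sum at 6.83.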
